A study of Caenorhabditis elegans with 45 samples.

Results

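The lysozymes, saposin-like proteins and antimicrobial peptides of the nematode Caenorhabditis elegans were followed in a laboratory strain, 7 wild strains and their F1 hybrids. They were taken as all genes of the WBcel235 annotation whose symbol starts with lys-, ilys-, spp-, abf-, cnc-, fip-, fipr- or irg-, which gave 108 of 46926 annotated genes. Of these, 10 are lys, 6 ilys, 31 spp, 6 abf, 11 cnc, 7 fip, 29 fipr and 8 irg genes. The worm has no adaptive immunity and meets bacteria and fungi through its gut and its skin, where secreted effectors are the main known defence. Lysozymes cut bacterial peptidoglycan, and the worm has a protist-like class (lys) and an invertebrate class (ilys). Saposin-like proteins (spp, also called caenopores) are small proteins, some of which open pores in bacterial membranes, while abf genes encode defensin-like peptides. The cnc (caenacin), fip (fungus-induced) and fipr (fip-related) genes encode short secreted peptides, several of which are induced in the epidermis by fungal infection. The irg genes were named as infection response genes, several of them targets of the p38 MAP kinase PMK-1 in the intestine.

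All groups were whole hermaphrodites harvested as day 1 adults, when most were gravid, with 3 libraries each. The laboratory group is labelled N2 with a fog-2 deletion, strain CB4108, although the growth protocol describes its animals as the offspring of selfed hermaphrodites. It is called N2 here. In these libraries fog-2, which hermaphrodites need to make sperm, was at 36.9 to 45.3 counts per 1000000 (CPM). In the 21 wild parental libraries it was at 31.7 to 46.8 CPM, so the N2 range lay within the wild range. Counts per gene do not show whether the labelled deletion is present. F1 libraries held 20.9 to 32.2 CPM of fog-2. The wild groups CB4856, DL238, ECA701, ECA722, EG4348, QX1211 and XZ1516 are labelled wildtype and also came from selfing. Each F1 group came from wild males and N2 fog-2 mothers, so all F1 animals had mothers with the fog-2 mutation, while the F1 themselves are labelled wildtype. Hermaphrodites were separated from males by hand before harvest. The directional libraries were made from polyadenylated RNA, which was extracted in 3 batches with 1 replicate per strain in each, which the labels do not tie to replicate numbers. Animals were pooled from plates, and nothing in the labels says that replicates were separate cultures, so p-values measure the spread between these samples. Library totals ran from 24450309 to 90515363 estimated counts.

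At least 1 count was found for 101 members in the 45 libraries, and 85 passed the filter on low counts that 16444 genes passed in all. The 23 others peaked at 0.237 CPM in any library and were not tested. They are abf-3, cnc-1, cnc-5, cnc-9, fip-1, fip-4, fipr-12, fipr-14, fipr-15, fipr-25, fipr-26, ilys-1, ilys-6, spp-7, spp-9, spp-11, spp-12, spp-20, spp-21, spp-26, spp-27, spp-29 and spp-30. Of these, spp-20, fipr-12, fipr-14, fipr-25, fip-4, cnc-9 and spp-26 had no count in any library. CPM here means estimated counts per 1000000 of the library total after TMM scaling, and a gene counts as called when its Benjamini-Hochberg adjusted p over all genes tested was under 0.05 in edgeR's quasi-likelihood test.

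Per length, a few genes held most of the family's transcripts. The members together summed to 8024 to 8275 transcripts per 1000000 (TPM) in the 3 N2 libraries, 7435 to 9934 in the 21 wild libraries and 6102 to 8132 in the 21 F1 libraries. The invertebrate lysozyme ilys-5 was the most abundant, at a mean of 1546 TPM over all libraries, followed by spp-5 at 1457, spp-17 at 1019.9, spp-14 at 941 and spp-3 at 666 TPM. spp-5 encodes caenopore-5, a pore-forming protein that permeabilises bacterial membranes, and spp-3 lies in the same cluster on chromosome X. The most abundant genes of the other families were fipr-21 at 403 TPM, lys-1 at 204, cnc-8 at 91.6, irg-8 at 71.5, fip-2 at 56.6 and abf-2 at 6.17 TPM. The shortest fip and fipr transcripts have very small effective lengths in the estimates, which raises their TPM relative to their CPM. The saposin-like genes alone summed to 4879 ± 74.7 TPM (SD, n = 3) in N2, and to between 4139 ± 17.2 TPM in ECA701 and 5754 ± 17.3 TPM in DL238 among the wild strains.

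Nearly all tested members differed somewhere among the 8 strains, as did most genes. In the test that the 8 parental groups are equal, 80 of 85 members (94.1%) were called, where 88.1% of all genes were. The 5 not called were abf-6, spp-6, spp-19, fipr-3 and ilys-4. Against N2, a difference was called for 39 of 85 members (45.9%) in EG4348, where 34.8% of all genes were. It was called for 47 of 85 members (55.3%) in CB4856, where 31.6% of all genes were. The counts were 49 of 85 members (57.6%) in QX1211, where 45.2% of all genes were, and 45 of 85 members (52.9%) in DL238, where 35.9% of all genes were. They were 44 of 85 members (51.8%) in XZ1516, where 45.3% of all genes were, 49 of 85 members (57.6%) in ECA701, where 52.5% of all genes were, and 42 of 85 members (49.4%) in ECA722, where 41.4% of all genes were. The share of members called was above that of all genes in each of the 7 strains, by least in ECA701 and by most in CB4856. The 7 contrasts share the 3 N2 libraries, so they are given side by side and are not independent.

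The sizes of the differences were wide as well. The median absolute log2 difference from N2 over the 85 members was 0.49 in EG4348 and 0.49 in ECA722, the smallest, and 0.83 in ECA701, the largest, where over all genes it was 0.23, 0.26 and 0.33. Members called and at least 2-fold higher than N2 numbered 15 in CB4856, 15 in DL238, 17 in ECA701, 11 in ECA722, 9 in EG4348, 18 in QX1211 and 12 in XZ1516, where 4.34, 5.33, 11.4, 6.4, 2.7, 8.05 and 5.14% of all genes were. Those called and at least 2-fold lower numbered 10, 5, 12, 11, 6, 10 and 15 in the same order, where 5.95, 5.41, 8.67, 6.46, 7.63, 6.4 and 10.6% of all genes were. Of the 85 members, 79 (92.9%) were called in at least 1 wild strain, where 86.6% of all genes were, and 25 (29.4%) were higher in one strain and lower in another, where 23.5% of all genes were. In all, 6 members (7.06%), lys-10, ilys-2, ilys-3, spp-8, spp-18 and irg-6, were called higher than N2 in all 7 wild strains, where 2.01% of all genes were. None of the 85 was called lower in all 7, where 1.59% of all genes were. The libraries are of whole animals, so fewer cells of a type and less RNA per cell cannot be told apart in any of these differences. All counts rest on reads that matched a transcript. Whether reads were missed because of sequence differences between strains was not tested, also for genes near 0 in a strain.

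**Figure D1:**
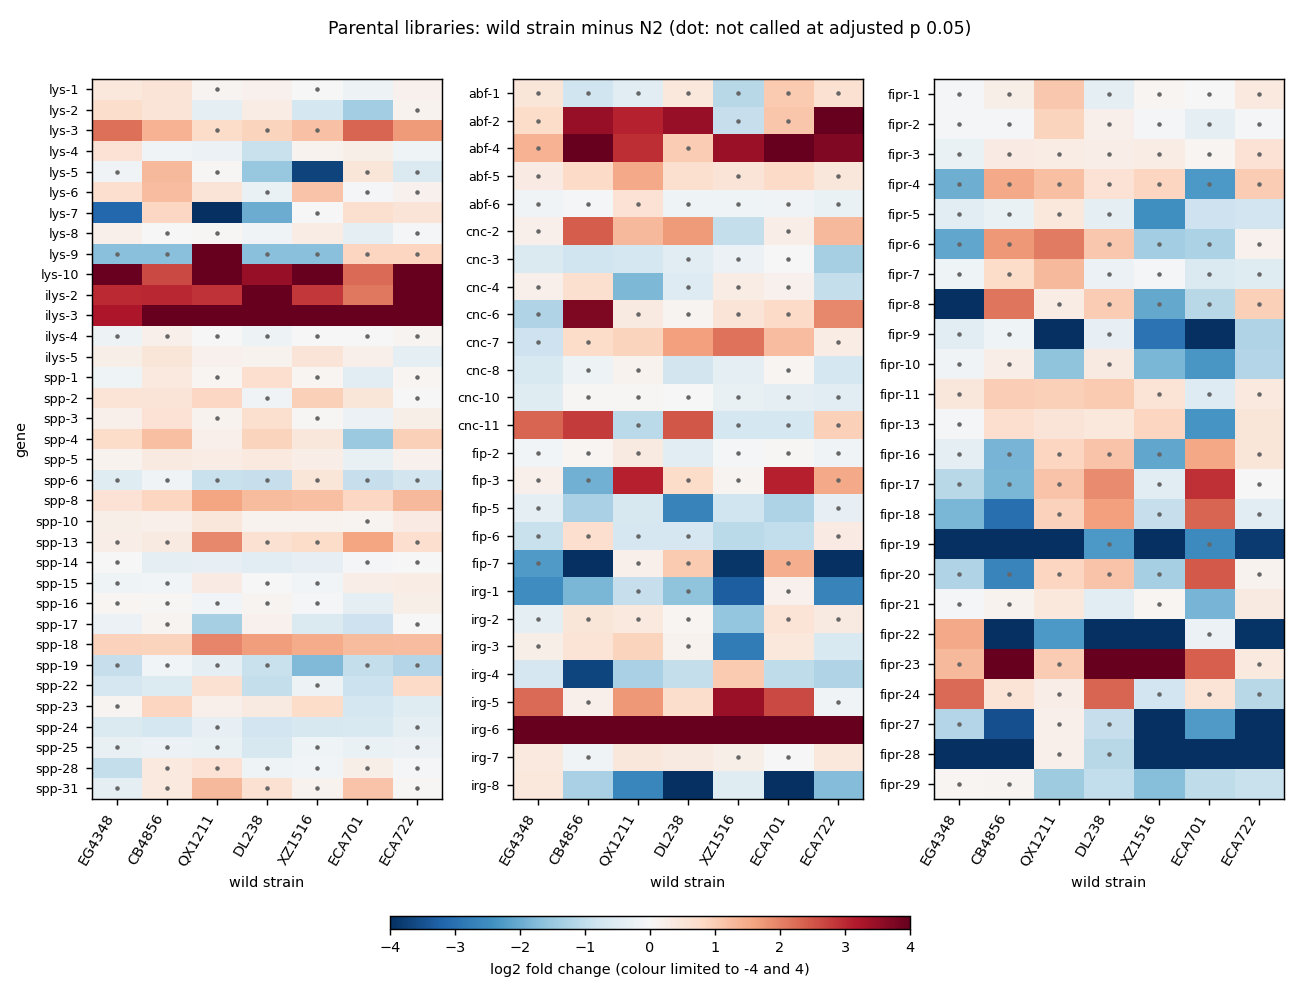
Log2 fold changes of the 85 tested members in the parental libraries, wild strain minus N2, with members in rows and the 7 wild strains in columns. Colour runs from blue (lower than N2) to red (higher) and is limited to -4 and 4, and a dot marks a difference that was not called at an adjusted p of 0.05. Rows that are red in all 7 columns include lys-10, ilys-2, ilys-3 and irg-6, while irg-8 and lys-7 are blue in some strains and pale red in others.

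Among the 10 lys lysozymes, between 5 (ECA722) and 8 (EG4348 and CB4856) were called per wild strain, where 41.4, 34.8 and 31.6% of all genes were. The widest difference was that of lys-7 (chromosome V, 3481432 to 3482600, minus strand in WBcel235), an intestinal lysozyme known as a target of the transcription factor DAF-16 and of use against several bacterial pathogens. It was at 50.8, 41.1 and 41.5 CPM in the 3 N2 libraries, 5.36, 4.57 and 5.27 CPM in EG4348 and 13.1, 11.5 and 8.88 CPM in DL238. In QX1211 it was at 0.0310, 0.0158 and 0.0267 CPM, 4 counts in all. CB4856 held more than N2, with 87.1, 78.0 and 72.8 CPM. The 3 libraries of QX1211 thus lay apart from every other parental library, and those of EG4348, DL238 and CB4856 did not overlap with N2. The log2 difference from N2 was -10.73 ± 0.35 (SE, adjusted p = 5.20e-25) in QX1211, -3.13 ± 0.16 (SE, adjusted p = 1.29e-18) in EG4348, -1.99 ± 0.15 (SE, adjusted p = 6.33e-14) in DL238 and 0.84 ± 0.14 (SE, adjusted p = 5.05e-06) in CB4856. ECA701 and ECA722 were also called higher, and XZ1516 was at 0.02 ± 0.14 (SE, adjusted p = 0.932), not called.

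The gene lys-10 (chromosome IV, 8332826 to 8333518, plus strand) was higher than N2 in all 7 wild strains. N2 held 0.441, 0.376 and 0.248 CPM, against 10.2, 10.3 and 11.2 CPM in XZ1516, 9.44, 8.69 and 10.2 CPM in QX1211 and 1.69, 1.39 and 1.89 CPM in ECA701. No wild library overlapped with N2. The log2 differences ran from 2.25 ± 0.22 (SE, adjusted p = 3.39e-11) in ECA701 to 4.93 ± 0.21 (SE, adjusted p = 3.55e-21) in XZ1516. The abundant lysozymes moved less. lys-1, which is known to be induced by Serratia marcescens, ranged from 166 to 272 TPM over the wild libraries and 180.3 to 195 TPM in N2, and its largest log2 difference was 0.52 ± 0.04 (SE, adjusted p = 2.46e-12) in CB4856. lys-2, its neighbour on chromosome V, was at 21.2, 22.7 and 22.5 CPM in N2 and 7.92, 9.03 and 8.56 CPM in ECA701, a log2 difference of -1.38 ± 0.07 (SE, adjusted p = 8.33e-20). In EG4348 lys-2 was higher than N2, at 0.69 ± 0.06 (SE, adjusted p = 1.67e-11). lys-8, another intestinal lysozyme, stayed between -0.40 ± 0.05 in ECA701 and 0.28 ± 0.05 in XZ1516. lys-5, between lys-4 and lys-6 on chromosome IV, was at 0.961, 0.945 and 0.982 CPM in N2 and 0.125, 0.0151 and 0.0871 CPM in XZ1516, a log2 difference of -3.70 ± 0.37 (SE, adjusted p = 1.26e-10). Of the fragments of lys-5 and lys-6, 70.0% and 29.9% matched more than 1 gene, so the split between them is uncertain. lys-9 had at most 2 counts in every group but QX1211 and was called in QX1211 alone, with a ratio to N2 of 80.8 (95% counting interval 13.9 to 3247).

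Of the 4 tested ilys genes, 3 were called in every wild strain, where 31.6 (CB4856) to 52.5% (ECA701) of all genes were. ilys-3, a lysozyme of the pharynx and intestine known for action against Gram-positive bacteria (chromosome IV, 2464456 to 2465443, plus strand), had 3 counts in all in N2, at 0.0200, 0.0114 and 0.0108 CPM. In QX1211 it was at 3.61, 2.61 and 3.29 CPM, and in ECA701 at 1.13, 1.36 and 1.54 CPM. In EG4348, the lowest wild strain, it was at 0.106, 0.175 and 0.136 CPM. No wild library overlapped with N2. The ratio of counts scaled to the library totals, wild to N2, was 242 (95% counting interval 82.4 to 1177) in QX1211, 102 (95% counting interval 34.5 to 497) in ECA701 and 10.7 (95% counting interval 3.29 to 54.7) in EG4348, and the edgeR test called all 7 strains. Its neighbour ilys-2 (chromosome IV, 2467678 to 2468879, plus strand) was at 0.0601, 0.125 and 0.0864 CPM in N2 and 1.80, 1.44 and 1.54 CPM in ECA722, a log2 difference of 4.05 ± 0.37 (SE, adjusted p = 1.07e-11). Its smallest difference was 2.12 ± 0.38 (SE, adjusted p = 1.60e-05) in ECA701, which was 3.38 ± 0.37 (SE, adjusted p = 1.17e-09) with allele-aware gene totals. The abundant ilys-5 was called higher than N2 in 6 wild strains (5 with no count filter, where DL238 was lost at an adjusted p of 0.104), at most at 0.51 ± 0.04 (SE, adjusted p = 4.32e-13) in XZ1516, and lower in ECA722, at -0.35 ± 0.04 (SE, adjusted p = 9.60e-09).

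**Figure D2:**
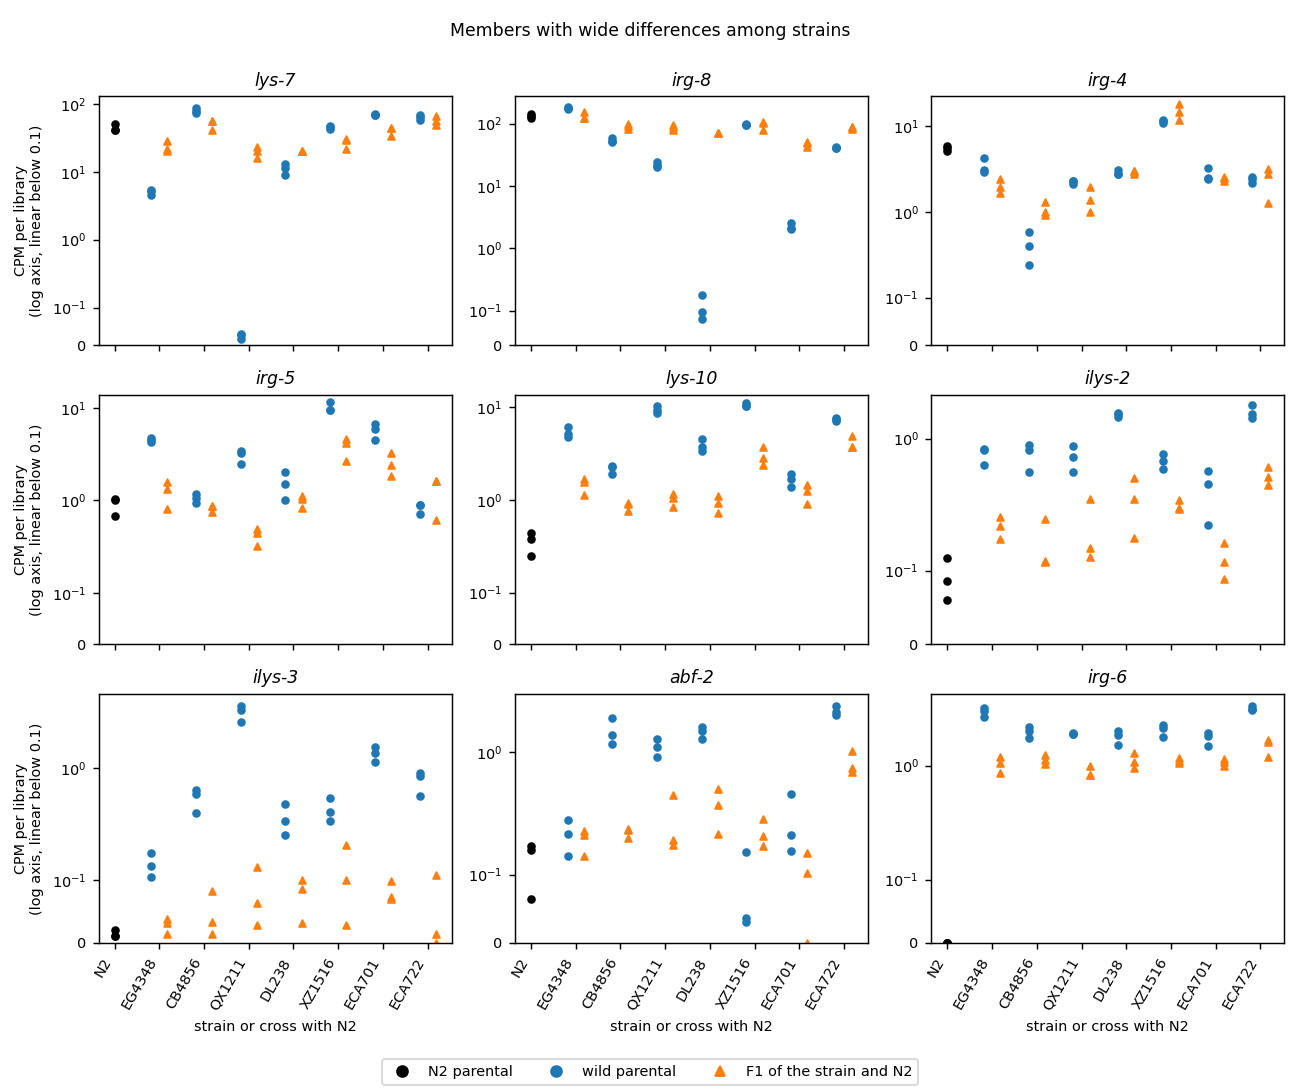
CPM of 9 members in each library on a log axis that is linear below 0.1, with N2 parental libraries in black, wild parental libraries as blue circles and the F1 of each wild strain and N2 as orange triangles. lys-7 in QX1211 and irg-8 in DL238 lie near 0 with F1 libraries close to the other crosses, lys-10, ilys-2 and ilys-3 are lowest in N2, and irg-6 is at 0 in the 3 N2 libraries.

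The 21 tested saposin-like genes differed from N2 in 10 (ECA722) to 15 (ECA701) members per strain, mostly by less than 2-fold. The share of all genes called was 41.4% in ECA722 and 52.5% in ECA701. The pore-forming spp-5 (chromosome X, 7319937 to 7320354, minus strand) was at 269.6, 283 and 303 CPM in N2, 354, 384 and 393 CPM in DL238 and 235, 233 and 232 CPM in ECA701. DL238 lay above and ECA701 below all N2 libraries, with log2 differences of 0.40 ± 0.05 (SE, adjusted p = 3.40e-08) and -0.29 ± 0.05 (SE, adjusted p = 9.11e-06). spp-17 (chromosome I, 1016405 to 1017176, plus strand) was lowest in QX1211, at 88.8, 85.2 and 85.7 CPM, where N2 held 219, 208 and 218 CPM, a log2 difference of -1.31 ± 0.05 (SE, adjusted p = 1.94e-23). spp-4, of the X cluster with spp-2, spp-3 and spp-5, was higher than N2 in 6 strains and lower in ECA701. It was at 16.8, 17.4 and 17.2 CPM in N2, 38.8, 39.0 and 42.0 CPM in CB4856 and 6.08, 5.93 and 6.44 CPM in ECA701, with log2 differences of 1.22 ± 0.08 (SE, adjusted p = 2.42e-15) and -1.48 ± 0.09 (SE, adjusted p = 2.98e-17). spp-8 and spp-18 were higher than N2 in all 7 strains. spp-8 was at 23.0, 23.0 and 23.0 CPM in N2 and 68.2, 67.8 and 71.2 CPM in QX1211, a log2 difference of 1.59 ± 0.05 (SE, adjusted p = 1.80e-26), and its smallest was 0.58 ± 0.05 (SE, adjusted p = 1.03e-12) in EG4348. spp-18 was at 8.25, 9.18 and 8.80 CPM in N2 and 35.5, 31.5 and 35.8 CPM in QX1211, a log2 difference of 1.97 ± 0.09 (SE, adjusted p = 6.84e-21), and its smallest was 0.90 ± 0.09 (SE, adjusted p = 1.26e-10) in CB4856. The libraries of N2 did not overlap with the wild libraries for either gene. spp-1, which encodes caenopore-1, was higher in CB4856 and DL238 and lower in EG4348 and ECA701, with log2 differences between -0.45 ± 0.05 and 0.67 ± 0.05. The rare spp-13 was called higher in QX1211 and ECA701, at 1.94 ± 0.64 (SE, adjusted p = 0.0121) and 1.59 ± 0.63 (SE, adjusted p = 0.0338).

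Of the 5 tested defensin-like abf genes, 0 (EG4348) to 3 (CB4856 and QX1211) were called per strain, none of them lower than N2. The share of all genes called was 34.8% in EG4348, 31.6% in CB4856 and 45.2% in QX1211. In EG4348, 0 of the 5 had an unadjusted p under 0.05 in edgeR and 0 were called by DESeq2. abf-2, whose peptide kills bacteria and yeast in vitro (chromosome I, 3885631 to 3885888, minus strand), was at 0.160, 0.171 and 0.0648 CPM in N2, 2.11, 1.99 and 2.38 CPM in ECA722 and 0.0358, 0.0302 and 0.152 CPM in XZ1516. It was called higher in CB4856, QX1211, DL238 and ECA722, whose libraries did not overlap with N2, with log2 differences from 3.07 ± 0.45 (SE, adjusted p = 5.24e-07) in QX1211 to 4.05 ± 0.45 (SE, adjusted p = 1.25e-09) in ECA722. With allele-aware gene totals the QX1211 value was 3.74 ± 0.52 (SE, adjusted p = 1.70e-07). The neighbouring abf-1 was called in the test among strains but in no single strain, and both lie opposite the gene C50F2.2 on the other strand. abf-4 had 3 counts in N2 and was called higher in 5 strains, with a ratio of 28.4 (95% counting interval 9.18 to 142) in CB4856.

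Among the caenacins, cnc-2 is known to respond to fungal infection in the epidermis through the TGF-beta ligand DBL-1. Of 8 tested cnc genes, 1 (ECA701) to 5 (CB4856 and ECA722) were called per strain, where 52.5, 31.6 and 41.4% of all genes were. cnc-2 (chromosome V, 1449665 to 1450183, minus strand) was at 0.320, 0.364 and 0.302 CPM in N2 and 1.90, 1.32 and 2.13 CPM in CB4856, with no overlap and a log2 difference of 2.42 ± 0.28 (SE, adjusted p = 4.31e-09). It was also called higher in QX1211, DL238 and ECA722 and lower in XZ1516, at -0.96 ± 0.32 (SE, adjusted p = 0.0127). Without XZ1516 replicate 1 that was -0.74 ± 0.34 (SE, adjusted p = 0.0881). cnc-4, nearby on chromosome V, was lowest in QX1211, at 0.650, 0.616 and 0.348 CPM where N2 held 2.06, 1.82 and 1.94 CPM, a log2 difference of -1.80 ± 0.26 (SE, adjusted p = 4.24e-07). cnc-6 was at 0.0801, 0.0911 and 0.0432 CPM in N2 and 0.912, 0.873 and 1.11 CPM in CB4856, a log2 difference of 3.73 ± 0.56 (SE, adjusted p = 1.30e-06). It was also called in ECA722, at 1.92 ± 0.57 (SE, adjusted p = 0.00586), and in no other strain. Its F1 with CB4856 was at 0.0297, 0.0669 and 0.0275 CPM. cnc-11, as rare in N2 at 0.0601, 0.0342 and 0.0324 CPM, was called higher in EG4348, CB4856 and DL238, at 2.34 ± 0.68, 2.80 ± 0.69 and 2.48 ± 0.68. The EG4348 call of cnc-11 was lost with allele-aware gene totals, at 0.82 ± 1.02 (SE, adjusted p = 0.575). cnc-8, the most abundant caenacin, was called lower in EG4348, DL238, XZ1516 and ECA722, between -0.73 ± 0.15 and -0.39 ± 0.14.

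The fip and fipr genes include several that were listed with few or no counts in some strains. Of the 24 tested fipr genes, 6 (EG4348) to 13 (ECA701) were called per strain, and of the 5 tested fip genes 0 (EG4348) to 3. The share of all genes called was 34.8% in EG4348 and 52.5% in ECA701. In EG4348, 3 fip genes had an unadjusted p under 0.05 in edgeR, and DESeq2 called 2. fipr-21, the most abundant (chromosome X, 10304529 to 10304867, plus strand), was at 84.3, 72.3 and 76.7 CPM in N2 and 22.7, 21.4 and 20.1 CPM in ECA701, a log2 difference of -1.86 ± 0.12 (SE, adjusted p = 8.83e-16). fip-5, its neighbour on chromosome X, was lowest in DL238, at 0.834, 0.438 and 0.514 CPM where N2 held 4.13, 3.42 and 3.79 CPM, a log2 difference of -2.67 ± 0.20 (SE, adjusted p = 6.33e-14). fipr-13 was higher than N2 in 5 strains and lower in ECA701, where it was at 1.34, 1.28 and 1.28 CPM against 6.17, 6.72 and 7.10 CPM, a log2 difference of -2.36 ± 0.12 (SE, adjusted p = 1.23e-18). fipr-9 was at 2.32, 1.17 and 1.36 CPM in N2 and 0.0155, 0.0158 and 0.0535 CPM in QX1211, a log2 difference of -5.92 ± 0.48 (SE, adjusted p = 5.26e-13), and -5.51 ± 0.44 in ECA701. With allele-aware gene totals in place of the kallisto counts, fipr-9 was at 0.31 ± 0.26 (SE, adjusted p = 0.343) in QX1211 and -0.68 ± 0.26 (SE, adjusted p = 0.0277) in ECA701, so its difference depends on the counting. fipr-22 (chromosome I, 14155429 to 14156336, plus strand) had no count in CB4856, DL238 or XZ1516, at least 100.5-fold lower than N2 in CB4856 and at least 119.9-fold lower in XZ1516, with the floor of 3 counts taken over a group. Of its fragments 50.4% also matched other genes, nearly all of them fipr-23, whose own fragments all matched C37A5.3 too, so the split of reads among these genes is uncertain. fipr-23 was called higher than N2 in 4 strains. Its log2 difference was 4.28 in CB4856, 4.99 in DL238 and 5.69 in XZ1516, the strains where fipr-22 had no count. Whether reads of fipr-22 were counted as fipr-23 there was not tested. fipr-28 (chromosome IV, 16627976 to 16628444, plus strand) had no count in EG4348, XZ1516 and ECA722, at least 32.7-fold, 27.2-fold and 34.8-fold lower than N2 at 0.280, 0.820 and 0.356 CPM. Its neighbour fip-7 and the nearby fipr-27, of whose fragments 38.1% and 90.9% matched both, were called lower in CB4856, XZ1516 and ECA722 as well. fip-7 had no count in ECA722, at least 14.4-fold lower than N2. In the other direction fip-3 was called higher in QX1211 and ECA701, at 3.11 ± 0.70 (SE, adjusted p = 0.000403) and 3.11 ± 0.70 (SE, adjusted p = 0.000307). fip-2, the most abundant fip gene, was called in DL238 alone, at -0.42 ± 0.17 (SE, adjusted p = 0.0466).

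Of the 8 infection response genes, 5 to 7 were called per wild strain, where 31.6 (CB4856) to 52.5% (ECA701) of all genes were. irg-8 (chromosome V, 415870 to 417706, minus strand) was at 143, 134 and 125 CPM in N2, 175, 174 and 185 CPM in EG4348 and 21.4, 24.2 and 20.5 CPM in QX1211. It was at 2.58, 2.07 and 2.10 CPM in ECA701 and 0.0970, 0.181 and 0.0761 CPM in DL238, 21 counts in all. Each of these 4 wild groups lay apart from N2 and from each other. The log2 difference from N2 was -10.06 ± 0.19 (SE, adjusted p = 1.25e-32) in DL238, -5.89 ± 0.12 (SE, adjusted p = 2.57e-31) in ECA701, -2.60 ± 0.10 (SE, adjusted p = 2.88e-23) in QX1211 and 0.41 ± 0.09 (SE, adjusted p = 0.000332) in EG4348. CB4856, ECA722 and XZ1516 lay between, at -1.30 ± 0.09, -1.72 ± 0.09 and -0.48 ± 0.09. In decreasing order the group means ran EG4348, N2, XZ1516, CB4856, ECA722, QX1211, ECA701 and DL238, and no 2 neighbours in that order overlapped.

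irg-4 and irg-5 encode CUB-like proteins and are known PMK-1 targets of the intestine. irg-4 (chromosome IV, 12435833 to 12438236, plus strand) was at 5.07, 5.54 and 5.92 CPM in N2 and 0.584, 0.395 and 0.237 CPM in CB4856. It was at 11.8, 10.8 and 11.6 CPM in XZ1516, the highest group. The log2 difference was -3.67 ± 0.27 (SE, adjusted p = 4.66e-14) in CB4856 and 1.05 ± 0.21 (SE, adjusted p = 6.10e-05) in XZ1516, and the 5 other strains were called lower than N2. irg-5 (chromosome V, 13737010 to 13738474, minus strand) was at 0.681, 1.01 and 1.04 CPM in N2 and 9.62, 11.5 and 9.45 CPM in XZ1516, a log2 difference of 3.46 ± 0.28 (SE, adjusted p = 3.41e-13). It was also called higher in ECA701, EG4348, QX1211 and DL238, at 2.63 ± 0.27, 2.28 ± 0.27, 1.74 ± 0.27 and 0.71 ± 0.28. The call in DL238 was lost without any 1 of DL238 replicates 1 and 2 and N2 replicates 1 to 3 (adjusted p = 0.0584 to 0.3), and under the replicate block at 0.69 ± 0.28 (SE, adjusted p = 0.0526). irg-3 was lowest in XZ1516, at 0.447, 0.468 and 0.545 CPM where N2 held 3.92, 3.06 and 3.11 CPM, a log2 difference of -2.79 ± 0.16 (SE, adjusted p = 3.72e-17). irg-7, known to act upstream of p38 signalling, differed by at most 0.46 ± 0.11 (SE, adjusted p = 0.000441), in QX1211. irg-1, a target of ZIP-2 that answers blocked translation, was at 0.240, 0.216 and 0.281 CPM in N2 and was called lower in EG4348, CB4856, XZ1516 and ECA722, at -3.28 ± 0.81 (SE, adjusted p = 0.00102) in XZ1516. The irg-1 call in CB4856 was lost without any 1 of its libraries or the N2 libraries (adjusted p = 0.0571 to 0.127). irg-2 was called in XZ1516 alone, at -1.55 ± 0.48 (SE, adjusted p = 0.00828). irg-6 (chromosome IV, 12912722 to 12914969, minus strand) had no count in the 3 N2 libraries and 1.49 to 3.34 CPM in the 21 wild libraries.

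Signalling genes known to act upstream of these effectors were followed as lists that hold no member. Beside the counts below, 31.6 (CB4856) to 52.5% (ECA701) of all genes were called per wild strain. Of 20 genes of p38 and other intestinal immune signalling, such as pmk-1, atf-7 and elt-2, 8 to 13 were called per wild strain, and their median log2 difference was at most 0.23, in QX1211. Of 14 genes of epidermal peptide signalling, such as sta-2 and dbl-1, 2 to 6 were called. Of 10 tested nlp genes, the other epidermal antimicrobial peptides, 2 (EG4348) to 10 (ECA701) were called per strain. In ECA701, 3 were higher and 7 lower, in ECA722, 1 higher and 8 lower, and in CB4856, 4 higher and 1 lower. Their median log2 difference was 0.02 in EG4348, 0.08 in CB4856, -0.38 in XZ1516, -0.41 in DL238, -0.76 in QX1211, -0.79 in ECA701 and -1.03 in ECA722, where that of all genes was 0.03 in ECA701 and 0.02 in ECA722.

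In the hybrids, members often lay below both parents. A gene was counted as below both when F1 minus N2 and F1 minus wild parent were both called lower, and as above both when both were called higher. Members were below both parents in 99 of 595 member and cross pairs (16.6%), where 6.08% of all gene and cross pairs were. They were above both in 18 pairs (3.03%), where 5.36% of all pairs were. By cross, 9, 8, 16, 14, 16, 18 and 18 members were below both parents in CB4856, DL238, ECA701, ECA722, EG4348, QX1211 and XZ1516, where 6.82, 4.6, 7.44, 6.12, 4.7, 7.41 and 5.44% of all genes were. Those above both numbered 3, 1, 1, 3, 2, 4 and 4 of 85, where 6.07, 2.75, 7.01, 5.4, 1.68, 9.55 and 5.04% of all genes were. The share below both was thus higher in the members than in all genes in each cross. Every F1 group had fog-2 mothers and the parents are described as selfed, so hybrid state cannot be told apart from this origin. The 7 crosses share the N2 libraries, and the counts of the F1 files appear to rest on the wild parent's transcript set. With the allele-aware gene totals, which hold both parents' transcripts, 105 pairs were below and 18 above. Without N2 replicate 3, 80 pairs were below both and 10 above.

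**Figure D3:**
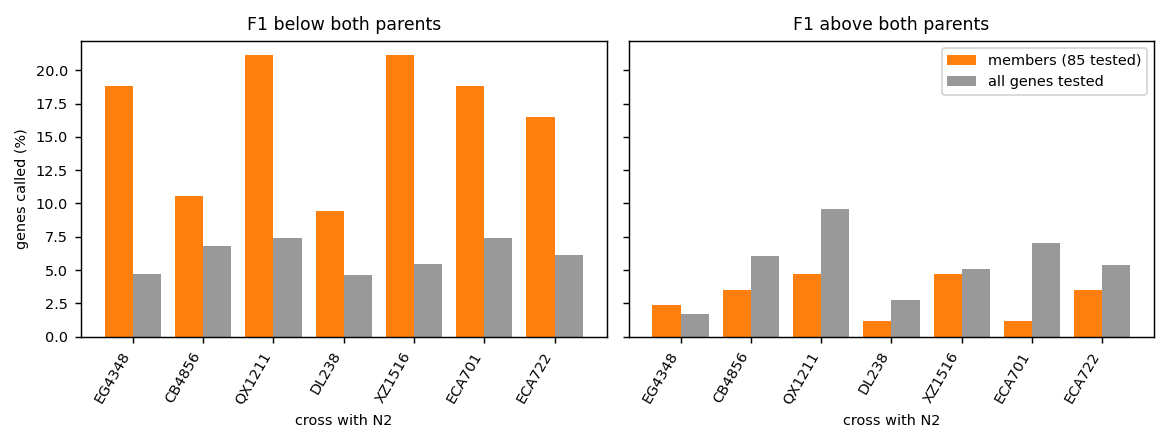
Share of the 85 tested members (orange) and of all 16444 tested genes (grey) called below both parents (left) or above both parents (right) in each cross. Orange bars on the left reach 9.41 to 21.2% and stand above the grey bar in every cross, while on the right they reach 1.18 to 4.71%.

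Markers of tissues were placed beside this count, where 6.08% of all gene and cross pairs were below both parents and 5.36% above. Of 10 intestine markers, 17 of 70 gene and cross pairs (24.3%) were below both parents and 2 above, and their summed level was 11464 to 15462 TPM in N2, 13946 to 19334 in wild and 13966 to 17046 in F1 libraries. Of 7 epidermis markers, 8 of 49 pairs were below and 0 above, with sums of 8692 to 10447 TPM in N2, 7513 to 11224 in wild and 5936 to 10001 in F1 libraries. Of 6 oocyte and germline markers, 18 of 42 pairs (42.9%) were above both parents and 0 below, and their sum was 1726 to 1784 TPM in N2, 1752 to 2329.8 in wild and 1999.8 to 2318 in F1 libraries. The 4 male markers summed to at most 1.81 TPM in any F1 library, and 0 of their 28 pairs were above or below both. Sperm markers were above both in 3 of 49 pairs and below in 0. Embryo, neuron and coelomocyte markers were below both in 1 of 35, 2 of 28 and 2 of 14 pairs and above in 0. The part of these marker levels in the members' position was not tested. The p38 and intestinal signalling list was below both in 17 of 140 pairs and above in 4, the epidermal signalling list below in 14 of 98, and the nlp peptides below in 8 of 70.

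Of the 85 members, 37 (43.5%) were below both parents in at least 1 cross, where 19.6% of all genes were, and lys-4, spp-5 and spp-23 were so in all 7, where 0.243% of all genes were. The lysozyme gene lys-4 (chromosome IV, 11621429 to 11623174, minus strand) was at 128, 133 and 141 CPM in N2, 196, 201 and 209 CPM in EG4348 and 105, 104 and 105 CPM in their F1. Its log2 difference there was -0.36 ± 0.05 (SE, adjusted p = 1.20e-06) from N2 and -0.95 ± 0.05 (SE, adjusted p = 1.11e-17) from EG4348. The F1 libraries lay under all libraries of both parents. spp-5 was at 344, 356 and 333 CPM in XZ1516 and 255, 238 and 239 CPM in its F1, -0.23 ± 0.05 (SE, adjusted p = 0.000453) from N2 and -0.50 ± 0.05 (SE, adjusted p = 4.05e-10) from the wild parent. Over all crosses its level was 999.9 to 1355 TPM in F1 libraries and 1244 to 2015 TPM in wild ones. spp-23 (chromosome I, 1018843 to 1019157, plus strand), next to spp-17, differed most of the 3. It was at 15.4, 14.2 and 14.9 CPM in N2, 8.08, 9.81 and 9.28 CPM in ECA701 and 3.99, 3.59 and 3.38 CPM in their F1. In that cross the F1 lay -2.01 ± 0.09 (SE, adjusted p = 5.32e-20) from N2 and -1.30 ± 0.09 (SE, adjusted p = 1.50e-14) from the wild parent, with no overlap. With allele-aware gene totals these were -1.40 ± 0.08 (SE, adjusted p = 2.62e-16) and -0.66 ± 0.08 (SE, adjusted p = 7.21e-08). The lys-4 calls in ECA701 and DL238 and the spp-5 calls in CB4856 and DL238 were small and were lost without N2 replicate 3 or 1 library of the cross (adjusted p up to 0.159 for lys-4 and 0.136 for spp-5). The neighbouring spp-17 was below both parents in 0 crosses.

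spp-2 was below both parents in 6 crosses, all but ECA722, where its F1 minus N2 was 0.01 ± 0.11. spp-1, spp-3 and fipr-7 were so in 5 crosses, and ilys-4, ilys-5 and spp-16 in 4. With each library left out in turn, the calls held in 4 crosses for spp-2, 4 for spp-1, 5 for spp-3, 0 for fipr-7, 1 for ilys-4, 2 for ilys-5 and 4 for spp-16. The replicate block left fipr-7 below both in 4 crosses, with XZ1516 lost (adjusted p = 0.0521), and ilys-4 in 3. With DESeq2 ilys-5 was below both in 3 crosses, and the calls of ECA701 and ECA722 were lost (adjusted p = 0.101 and 0.0578). With only the groups compared ilys-4 was below both in 1 cross, and spp-1 and fipr-7 in 3. spp-2, spp-3, spp-4 and spp-5 lie on chromosome X between 7314969 and 7320354, with spp-6, which was below both in 0 crosses, between spp-2 and spp-4. ilys-5 was at 367, 399 and 372 CPM in the EG4348 F1, under both N2 at 469, 469 and 473 CPM and EG4348 at 535, 551 and 558 CPM. Its log2 difference was -0.31 ± 0.04 (SE, adjusted p = 3.78e-07) from N2 and -0.53 ± 0.04 (SE, adjusted p = 9.33e-13) from EG4348. Few members were above both parents. fipr-18 was above in 5 crosses and fipr-17 in 4, but at levels that spread widely between libraries. With allele-aware gene totals fipr-18 was above both in 1 cross, XZ1516, which was also the 1 cross whose calls held with each library left out in turn, and for fipr-17 the calls of 2 crosses held with each library left out. In the XZ1516 F1 fipr-18 was at 4.04, 1.03 and 1.71 CPM, where N2 held 0.481, 0.569 and 0.216 and XZ1516 0.250, 0.256 and 0.131 CPM. lys-2, fipr-20 and fipr-22 were above both in 2 crosses, of which 1, 0 and 2 held with each library left out. lys-2 was at 31.2, 33.2 and 35.4 CPM in the DL238 F1, above DL238 at 26.3, 26.7 and 29.2 CPM and N2, by 0.28 ± 0.06 (SE, adjusted p = 0.00068) and 0.59 ± 0.06 (SE, adjusted p = 2.32e-09).

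**Figure D4:**
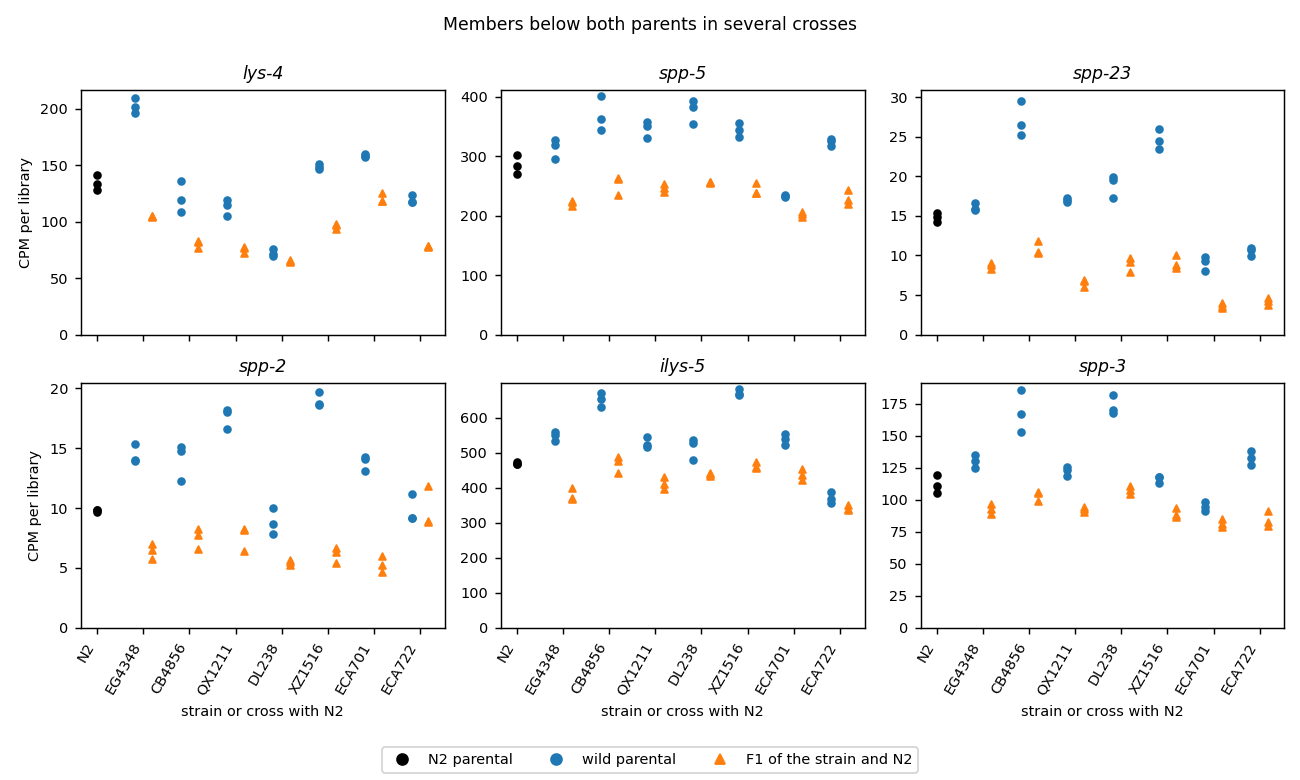
CPM of lys-4, spp-5, spp-23, spp-2, ilys-5 and spp-3 in each library on linear axes from 0, with N2 parental libraries in black, wild parental libraries as blue circles and F1 libraries as orange triangles. The F1 points of lys-4, spp-5 and spp-23 lie under the wild and N2 points in every cross.

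For several genes with wide parental differences the F1 lay between the parents. The DL238 F1 held irg-8 at 71.0, 71.9 and 70.9 CPM and the ECA701 F1 at 48.7, 41.9 and 51.5 CPM, -0.91 ± 0.09 and -1.50 ± 0.09 from N2 on the log2 scale. The QX1211 F1 held lys-7 at 23.2, 16.2 and 20.4 CPM, -1.15 ± 0.14 (SE, adjusted p = 4.23e-08) from N2. irg-6 was at 0.859, 1.18 and 1.06 CPM in the EG4348 F1 and 1.19, 1.67 and 1.61 CPM in the ECA722 F1, at least 79.3-fold and 115-fold higher than N2. In every cross irg-6 was lower in F1 than in the wild parent, from -0.70 ± 0.16 (SE, adjusted p = 0.000784) in DL238 to -1.52 ± 0.15 (SE, adjusted p = 1.25e-09) in EG4348. Several genes that were low in N2 lay nearer to N2 than to the wild parent in F1. lys-10 was at 1.16, 0.848 and 1.05 CPM in the QX1211 F1, -3.20 ± 0.19 (SE, adjusted p = 1.83e-16) from QX1211 and 1.57 ± 0.23 (SE, adjusted p = 8.25e-07) from N2. ilys-3 was at 0.0290, 0.0636 and 0.131 CPM in the same F1, -5.42 ± 0.50 (SE, adjusted p = 2.60e-11) from QX1211, and at -6.12 ± 0.62 (SE, adjusted p = 5.45e-10) without F1 replicate 3. abf-2 in the CB4856 F1 was at 0.238, 0.201 and 0.234 CPM, -2.69 ± 0.43 (SE, adjusted p = 5.00e-06) from CB4856 and 0.80 ± 0.49 (SE, adjusted p = 0.213) from N2, the latter not called.

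Reads that match 1 parent's transcripts alone show which allele an F1 transcript came from. With at least 10 such reads per F1 library on average, 52 members could be tested in at least 1 cross, in 176 member and cross pairs. In the files of the EG4348 samples the wild allele is headed EG4349, and why the name differs from the label is not given. A difference between the alleles was called in 23 pairs. By cross these were 0 of 17 members in CB4856, 3 of 20 in DL238, 6 of 30 in ECA701, 2 of 34 in ECA722, 2 of 12 in EG4348, 4 of 33 in QX1211 and 6 of 30 in XZ1516. Over all genes tested 7.82, 7.41, 13.8, 9.76, 8.43, 11.4 and 17.3% were called in the same order. The members' share was above that of all genes in EG4348, QX1211, DL238, XZ1516 and ECA701 and below it in CB4856 and ECA722, on few members. In CB4856, where edgeR called 0 members, 2 had an unadjusted p under 0.05. The test on allele-specific reads alone, in place of counts that share out ambiguous reads, called 2, 6, 10, 6, 5, 7 and 10 members in the same order of crosses. The share of all genes called by that test is not given here. Its counts therefore cannot be set against the shares above. Without F1 replicate 1, 1 member was called in EG4348, 3 in XZ1516 and 3 in ECA701, and without F1 replicate 2, 1 was called in EG4348 and 1 in ECA722.

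irg-8 was tested in 4 crosses and the wild allele was the lower in all 4. In the DL238 F1 libraries the wild allele gave 0.317, 0.135 and 0.142% of allele-specific reads, 23 wild against 11711 N2 reads, a log2 ratio of -8.96 ± 0.22 (SE, adjusted p = 2.11e-05). In the ECA701 F1 libraries it gave 3.37, 3.82 and 4.03%, a log2 ratio of -4.69 ± 0.11 (SE, adjusted p = 1.44e-05). The QX1211 and ECA722 alleles gave 24.5, 23.5 and 26.0% and 28.1, 31.8 and 28.9%, with log2 ratios of -1.63 ± 0.07 (SE, adjusted p = 9.75e-05) and -1.26 ± 0.07 (SE, adjusted p = 0.000909). The order of the 4 alleles in F1 was thus the order of the 4 strains' own levels. The sizes did not all match, as the trans difference, defined below, was called for irg-8 in 3 of the 4 crosses. In the same gene, the wild parents gave at most 4 N2-specific reads, in ECA701, beside 533 wild-specific ones.

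For lys-7 the alleles of EG4348, QX1211 and DL238, the 3 strains with less of it, were low in F1 as well. The EG4348 allele gave 1.51, 1.04 and 1.49% of allele-specific reads, a log2 ratio of -6.22 ± 0.19 (SE, adjusted p = 4.42e-05), and the DL238 allele 1.64, 2.03 and 4.21%, -5.24 ± 0.31 (SE, adjusted p = 0.000688). In the QX1211 F1 all 328 allele-specific reads were from N2, which allows a wild share of up to 0.915%, by counting error only. No wild-specific read was found in the QX1211 parent either, where the gene had 4 counts, so no fold is given. In XZ1516 and ECA701, whose own levels were at or above N2, the wild alleles gave 41.4, 45.4 and 38.3% and 42.9, 36.0 and 41.4%, both called lower, at -0.49 ± 0.12 (SE, adjusted p = 0.0381) and -0.58 ± 0.11 (SE, adjusted p = 0.0255). Both calls were lost without any 1 F1 library, with an adjusted p of 0.0708 to 0.167 in XZ1516 and 0.0557 to 0.126 in ECA701. In CB4856 and ECA722 no allele difference was called, with wild shares of 52.4, 49.7 and 50.4% and 48.1, 48.1 and 54.3%, with log2 ratios of 0.05 ± 0.08 (SE, adjusted p = 0.797) and 0.01 ± 0.10 (SE, adjusted p = 0.965).

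**Figure D5:**
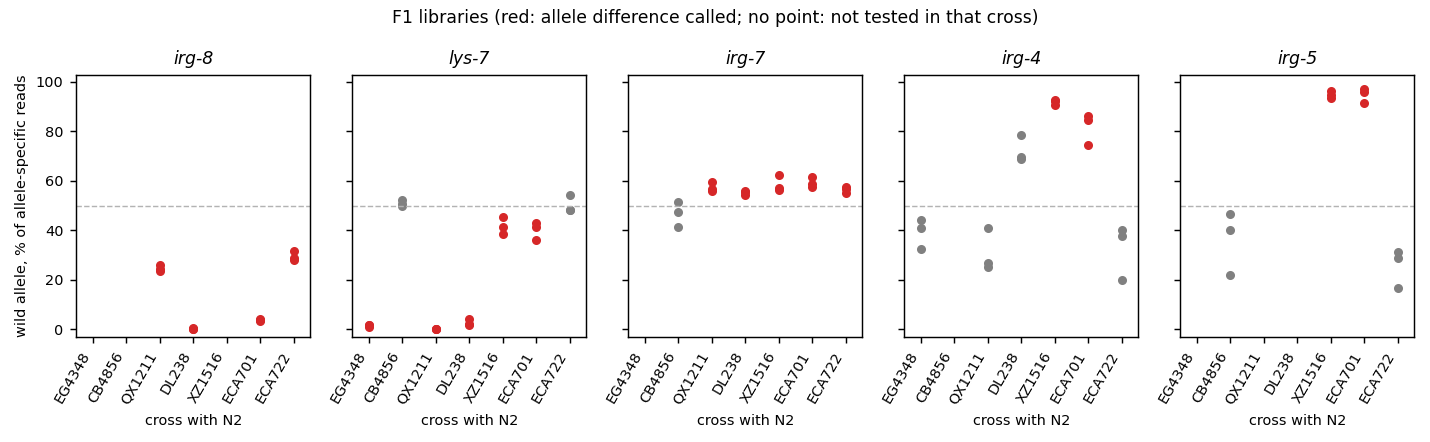
Share of the wild allele among allele-specific reads in each F1 library of irg-8, lys-7, irg-7, irg-4 and irg-5, by cross, with a dashed line at equal shares. Red points mark crosses where the allele difference was called, grey points those where it was not, and crosses without points had too few allele-specific reads. Wild alleles of irg-8 all lie below the line, those of irg-7 lie just above it in 5 crosses, and those of irg-4 and irg-5 lie above it in XZ1516 and ECA701.

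irg-4 and irg-5 favoured the wild allele in XZ1516 and ECA701. The irg-5 alleles of XZ1516 and ECA701 gave 93.5, 94.7 and 96.5% and 95.9, 91.4 and 97.1% of allele-specific reads, with log2 ratios of 4.21 ± 0.32 (SE, adjusted p = 0.00062) and 4.24 ± 0.43 (SE, adjusted p = 0.00314). Both strains also held more irg-5 than N2. The irg-4 alleles gave 92.3, 90.7 and 92.8% and 86.3, 74.6 and 84.7%, with log2 ratios of 3.50 ± 0.16 (SE, adjusted p = 7.47e-05) and 2.21 ± 0.36 (SE, adjusted p = 0.0149). The irg-4 call in ECA701 was lost without F1 replicate 1 or 3 (adjusted p = 0.108 and 0.0508). ECA701 itself held less irg-4 than N2, so there the allele and the parent pointed in opposite directions. The longest irg-4 transcript used for counting has 1090 bases in XZ1516 and ECA701 and 1102 in N2 and the other wild strains. Whether this moves the allele shares was not tested. irg-7 favoured the wild allele in 5 of 6 crosses tested, from 54.4, 55.5 and 56.0% in DL238 to 61.7, 57.3 and 58.7% in ECA701, with log2 ratios of 0.28 ± 0.04 (SE, adjusted p = 0.0179) and 0.54 ± 0.06 (SE, adjusted p = 0.00393). The DL238 call of irg-7 was lost without any 1 F1 library (adjusted p = 0.0729 to 0.141), that of ECA722 without F1 replicate 2 and that of XZ1516 without F1 replicate 1. fipr-13 favoured the wild allele in XZ1516, at 66.3% of pooled reads, and N2 in ECA701, at 24.6% wild, the same side as the parents in both. The other calls were spp-8 in XZ1516, fip-7 in EG4348 and fipr-19 in QX1211, the last 2 on 26.7 and 14.0 allele-specific reads per library. The calls of fipr-13, spp-8, fip-7 and fipr-19 were lost without at least 1 of their F1 libraries.

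The trans difference is the parental log2 difference minus the allelic one, and departs from 0 where the parents differ by more or less than their alleles do in a shared animal. Parental values here are sums over both alleles in the allele count files, and in those of the N2 libraries the second allele is QX1211 for every cross. It was called for 45 of the 176 pairs, with 4, 6, 9, 10, 2, 6 and 8 members in CB4856, DL238, ECA701, ECA722, EG4348, QX1211 and XZ1516. Over all genes 9.02, 9.81, 22, 15.2, 13.8, 14 and 17.6% were called. With 1 library left out the count fell to 4 in ECA722 (ECA722 parental replicate 1 or N2 replicate 2), 3 in QX1211 (QX1211 parental replicate 3 or N2 replicate 3) and 5 in ECA701 (ECA701 parental replicate 1). Several genes were high in wild parents with no allele difference called in F1. lys-10 in the ECA722 cross had an allelic log2 ratio of 0.01 ± 0.32 (SE, adjusted p = 0.994) and a trans difference of 4.38 ± 0.36 (SE, adjusted p = 2.29e-05). ilys-2 in XZ1516 had 0.79 ± 0.50 (SE, adjusted p = 0.346) between alleles and a trans difference of 3.58 ± 0.48 (SE, adjusted p = 0.000529). spp-18 in XZ1516 had 0.09 ± 0.16 (SE, adjusted p = 0.751) and 1.39 ± 0.14 (SE, adjusted p = 8.27e-05), and spp-8 in QX1211 0.26 ± 0.11 (SE, adjusted p = 0.223) and 1.31 ± 0.10 (SE, adjusted p = 1.19e-05). The other direction was seen for irg-4, at -3.26 ± 0.33 (SE, adjusted p = 9.27e-05) in ECA701, -2.48 ± 0.16 (SE, adjusted p = 2.07e-06) in XZ1516 and -2.38 ± 0.27 (SE, adjusted p = 0.000267) in DL238. lys-7 had a trans difference of 3.18 ± 0.32 (SE, adjusted p = 0.000101) in DL238 and 3.07 ± 0.20 (SE, adjusted p = 7.84e-06) in EG4348, where its alleles differed by more than the parents did. Counting these crosses, lys-7 was called for trans in 6 of the 7 crosses tested, and irg-8 in 3 of 4. For irg-6, ilys-3 and abf-2 too few allele-specific reads were found for a test.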

How the data were processed

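Whole-worm RNA-seq libraries, 45 in 15 groups of 3, were grouped by their titles and genotype labels. The deposited tables hold estimated counts and transcripts per 1000000 (TPM) per transcript from kallisto, and, from Salmon 1.4, allele counts and equivalence classes with read counts, per the submitters' processing notes and the file headers. These notes also name FastQC, Trimmomatic 0.39, DESeq2 1.42.0 and the build ce11; the version of kallisto is not given in the sources used here. Coordinates are those of the WBcel235 annotation. Every column of per-sample values used belongs to a sample (0 without one).

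Per gene, the estimated counts were added up and then rounded, with 138 of 31973 transcripts placed by their sequence name. Genes passing filterByExpr were fitted in edgeR 4.0.16 (R 4.3.3, limma 3.58.1) with TMM scaling and quasi-likelihood tests, all 45 libraries in 1 fit with 30 residual degrees of freedom, and p-values were adjusted by Benjamini-Hochberg over all genes tested (threshold 0.05). SE is the log2 fold change divided by the square root of F. CPM uses TMM-scaled library totals. TPM was summed per gene as the authors deposited it. Allele tests used the rounded allele counts the authors deposited, for genes whose F1 libraries averaged 10 or more allele-specific reads, and took these reads from the equivalence classes. The fits were tested on simulated data first. Intervals and the floor of 3 counts per group cover counting error only. Library totals had a median of 63560394 estimated counts. Figures were drawn with matplotlib 3.10.9.

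Members, lists and rules were chosen with earlier results of these data known. Named genes were, per family, the 3 with the widest parental range and the most abundant, those absent in 1 parental group and at 1 CPM or more in another, those outside both parents or called for alleles in at least 3 crosses, and those of known role. spp-8, spp-17, irg-3, fipr-13, fipr-19, fipr-28 and others outside it were named after their values were seen. Alternatives were DESeq2 1.42.0, its size factors, no count filter, only the groups compared, a replicate block, allele-aware gene totals, allele-specific reads alone, a minimum of 30 such reads, and each library left out. No sequences are printed.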

Additional observations from a re-analysis of the deposited data

Results flagged for a closer look

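In 6 members the log2 difference from N2 was called at least 2-fold higher in 1 wild strain and at least 2-fold lower in another, and the direct test between those strains was called in all 6 with edgeR's quasi-likelihood test, adjusted over all genes for that pair. fipr-18 was 5.36 ± 0.84 (SE, adjusted p = 1.69e-06) higher on the log2 scale in ECA701 than in CB4856, with 2.34 and -3.01 against N2. Its CB4856 difference from N2 was not called with allele-aware gene totals, at -2.69 (adjusted p = 0.0773). fipr-22 was 11.59 ± 0.45 (SE, adjusted p = 8.02e-20) higher on the log2 scale in EG4348 than in CB4856, with 1.50 and -10.08 against N2. fipr-8 was 6.98 ± 1.21 (SE, adjusted p = 4.02e-05) higher on the log2 scale in CB4856 than in EG4348, with 2.14 and -4.84 against N2. irg-4 was 4.72 ± 0.27 (SE, adjusted p = 2.05e-17) higher on the log2 scale in XZ1516 than in CB4856, with 1.05 and -3.67 against N2. lys-5 was 5.00 ± 0.37 (SE, adjusted p = 3.27e-14) higher on the log2 scale in CB4856 than in XZ1516, with 1.30 and -3.70 against N2. spp-4 was 2.70 ± 0.09 (SE, adjusted p = 3.20e-25) higher on the log2 scale in CB4856 than in ECA701, with 1.22 and -1.48 against N2. fipr-22 had no count in CB4856 and fipr-8 none in EG4348, so their values are no bounds. Of the fragments of fipr-22, 50.4% were shared with other genes. fipr-8 shared 35.4% of its fragments with other genes and lys-5 70.0%, so the split of their reads is uncertain. The strain pairs were chosen by these values, so the calls in the direct tests follow from the choice and add no separate support.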

How the results depend on the processing

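The counts of members called among strains, against N2, and of F1 below both parents stayed within 1.5 times of the reported ones under DESeq2, its size factors, no count filter, only the groups compared, allele-aware gene totals and every library left out. DESeq2 was not run for the test among the 8 strains. An alternative chosen after seeing the data, the 7 wild strains without N2, called 77 members. With 1 library left out, members called for F1 minus N2 ranged from 17 to 29 in CB4856 and 26 to 36 in DL238, and pairs above both parents from 10 to 22. The trans counts ranged from 5 to 11 in ECA701, 4 to 9 in ECA722 and 3 to 7 in QX1211. The allele counts ranged from 3 to 4 in ECA701, 1 to 3 in ECA722, 1 to 2 in EG4348 and 3 to 4 in XZ1516. With allele-specific reads alone they were 2 in CB4856, 6 in DL238, 10 in ECA701, 6 in ECA722, 5 in EG4348, 7 in QX1211 and 10 in XZ1516, and with a minimum of 30 such reads 1 in CB4856 and 1 in EG4348, where fewer genes were tested. The shares of all genes called in these settings are not given here. With allele-aware gene totals the direction turned for fipr-23 (F1 minus N2, QX1211, -0.57), fipr-9 (wild minus N2, QX1211, 0.31, and F1 minus wild parent, QX1211, -1.03, and ECA701, -0.45) and fipr-19 (wild minus N2, ECA722, 0.033, and XZ1516, 0.11, and F1 minus wild parent, DL238, -0.26); the cause was not tested. Of single gene values, 468 were no longer called with a library left out and 4653 were. Depth limits the rare members most: 23 were too rare to test, and 3 counts in a group set the floor.

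The labels do not tie replicate numbers to extraction batches, and the numbers were not taken to pair the samples, since not every correlation of deviations was over 0.1. A single low pair fails that rule, so it cannot show that the numbers are unpaired. Over 315 same-numbered pairs the correlation of deviations ran from -0.60 to 0.54 with a median of 0.025, against -0.015 for other pairs. Deviations were taken from group means and sum to 0 within a group, so the 2 medians are not independent. In all, 25 of 45 libraries lay closest to their own number, where 15 would if no number were closer than another. Whether same-numbered libraries shared a batch was not tested. With the replicate block, 80 members were called among strains, 101 pairs were below and 21 above both parents, and no count of members moved by over 1.5 times. 11 single gene calls were lost and 694 were not.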
